A study of Ovis aries with 22 samples.

Results

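B lymphocytes and the plasma cells they give rise to were followed in the arterial sinus wall of sheep (Ovis aries) through 7 genes, BANK1, CD22, CD79A, CD79B, MS4A1, JCHAIN and MZB1, picked by symbol from 26200 gene rows of the RNA-sequencing count tables. All 7 had a row in both tables. Autograft sinus came from 3 sheep whose pulmonary root had been moved into the aortic position, the operation named after Ross, and was taken at 6 months. Native sinus, both aortic and pulmonary, came from 4 other sheep without surgery, named D3 to D6, each of which gave 1 library per tissue. No genotype, drug or age is labelled. Aortic replicate 1 (D3) carries the treatment label of the operated sheep although the design text places aortic sinus in sheep without surgery, and it was kept in the aortic group. The native tissue came from other animals than the autografts, so differences between animals are part of every autograft comparison.

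A B cell recognises antigen with a surface immunoglobulin whose signal is passed on by the chains encoded by CD79A and CD79B. MS4A1 encodes CD20, a membrane protein of B cells that is lost when they become plasma cells, CD22 encodes an inhibitory co-receptor, and BANK1 encodes a scaffold protein of B cell receptor signalling. Plasma cells secrete antibody: JCHAIN encodes the joining chain that links immunoglobulin M and A units, and MZB1 encodes a chaperone of the endoplasmic reticulum that assists immunoglobulin assembly. An arterial wall consists mostly of smooth muscle, so few reads come from lymphocytes, and in bulk tissue fewer cells of a type and less RNA per cell cannot be told apart.

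Library totals lay between 17380599 and 20741334 counts, and levels are given as CPM, the count set to a common library total, scaled by edgeR's trimmed mean of M values (TMM). Smooth muscle markers summed to between 19312 and 71816 CPM in every library, as is usual for a vessel wall. Autograft replicate 1 stood apart on the second principal component, at 64.1 against -31.5 to 24.2 in the other libraries, and pulmonary replicate 1 lay at 9.34 on the first, away from the other pulmonary libraries (-67.6 to -29.5) and next to aortic replicate 2 (8.46).

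The 3 autografts did not share 1 pattern. MS4A1, CD79A and CD79B were highest in autograft replicate 3, JCHAIN and MZB1 in replicate 2, and CD22 and BANK1 in replicate 1. Among all tested genes with counts in the autografts, 36.4% were highest in replicate 1, 32.0% in replicate 2 and 31.6% in replicate 3. Replicate 3 held 78.6% of the autograft CPM of MS4A1, 71.2% of that of CD79B and 63.9% of that of CD79A. Replicate 2 held 73.1% of that of JCHAIN and 72.0% of that of MZB1, and replicate 1 held 63.9% of that of CD22 and 47.2% of that of BANK1.

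**Figure D1:**
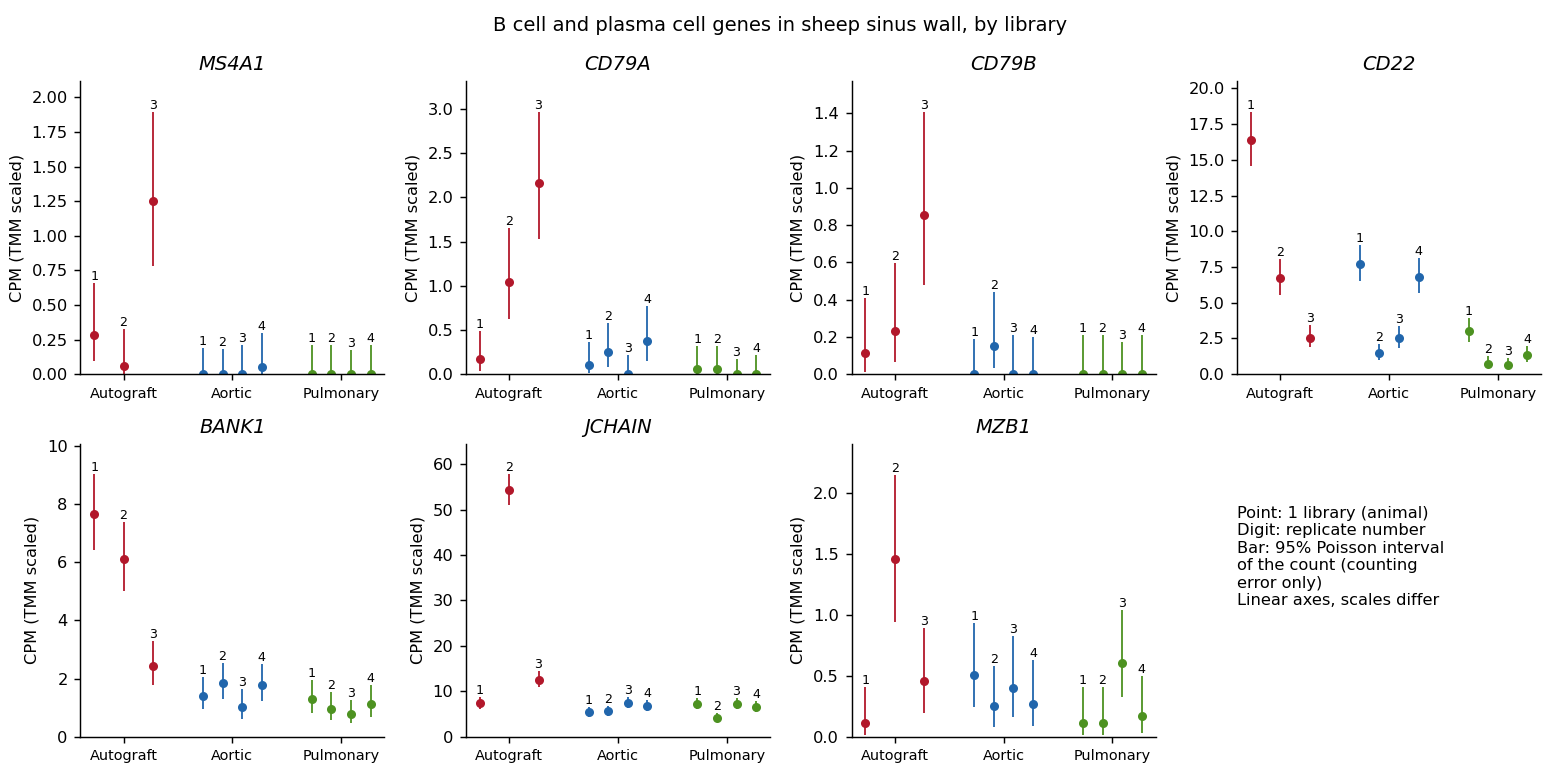
Each panel plots 1 gene, with CPM on a linear axis that starts at 0 and the 3 groups along the other axis; points are libraries with their replicate number, and bars are 95% Poisson intervals of the count. The highest library is autograft replicate 3 for MS4A1, CD79A and CD79B, autograft replicate 2 for JCHAIN and MZB1, and autograft replicate 1 for CD22 and BANK1.

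**Figure D2:**
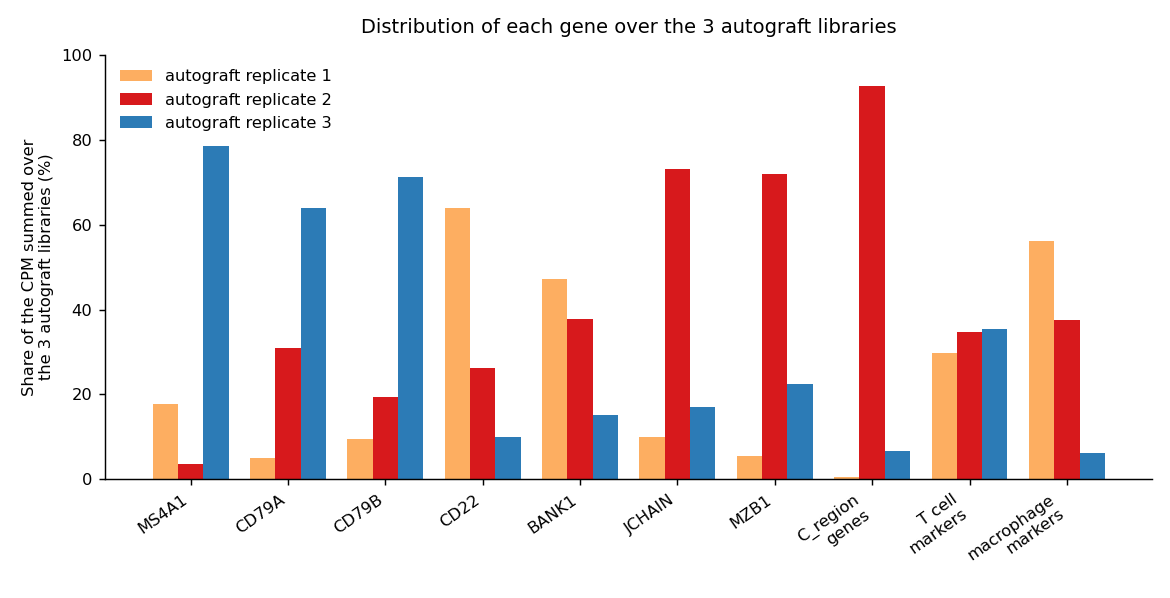
Bars give the share of the CPM summed over the 3 autograft libraries that each library held, in percent, for the 7 genes, for the constant-region segment genes and for 2 marker lists. The sum of the T cell markers is split at 29.8%, 34.8% and 35.4%, and the tallest bar of each of the 7 genes is between 47.2% and 78.6%. A sum over several genes is not like a single gene, and some single T cell markers, such as CD28 and CD8B, were less even than their sum.

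The surface genes of the B cell were near the limit of detection in native wall. MS4A1 had 5, 1 and 22 counts in autograft replicates 1, 2 and 3, 1 count in aortic replicate 4, and 0 counts in the other 3 aortic and all 4 pulmonary libraries. In CPM this was 0.281, 0.0582 and 1.25 in the autografts, and the 95% Poisson interval of replicate 3 (0.783 to 1.89) lay above those of replicate 1 (0.0913 to 0.656) and replicate 2 (0.00147 to 0.324). Such intervals cover counting error only, as the reads carry no molecular identifiers. Autograft replicate 2, with its 1 count, could not be told from the native libraries, since 0 counts allow up to 3 counts, or 0.141 to 0.175 CPM, in a library. Set against 3 counts over the pulmonary group, the pooled autograft level of MS4A1 was at least 13.1-fold higher, with autograft counting error left aside. With that error counted in, the exact 95% counting interval of the ratio began lower, at 10. Without autograft replicate 3, which gave 22 of the 28 autograft counts, these were 4.24 and 2.49.

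CD79A had 3, 18 and 38 counts in autograft replicates 1, 2 and 3, between 0 and 7 in the aortic libraries, and 1, 1, 0 and 0 in the pulmonary ones. Autograft replicates 2 and 3 were above every native library, and replicate 1, at 0.169 CPM, lay within the aortic range of 0 to 0.376 CPM. The pooled autograft to pulmonary ratio was 41.6, with an exact 95% counting interval of 11 to 351 that reflects the 2 pulmonary counts, and without autograft replicate 3 it was 22.2 (5.44 to 196). CD79B, the partner chain, had 2, 4 and 15 counts in the autografts, 3 in aortic replicate 2 and 0 in the other 7 native libraries. Against 3 counts its pooled autograft level was at least 9.86-fold higher than pulmonary sinus, with autograft counting error left aside. The exact 95% interval began lower, at 7.34. Without autograft replicate 3, which gave 15 of the 21 counts of CD79B, these were 4.24 and 2.49. The order of the 3 autografts was the same for both chains. With only 3 libraries an order can be shared by chance, here and wherever orders are compared below.

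These 3 genes and MZB1 were too low for the count filter and entered no model with the filter on. Two-sided exact permutation tests of CPM over libraries were run in their place, 12 in all and without adjustment. The smallest p that 3 against 4 libraries can give is 0.0286. Against pulmonary sinus that value was reached by MS4A1, CD79A and CD79B (each exact permutation p = 0.0286). Their autograft and pulmonary libraries did not overlap, but the lowest autograft had only 1, 3 and 2 counts. A higher level in all autografts without overlap was seen for 10.9% of the 14979 tested genes. That set does not hold these 3 genes, so the share is not one for genes with so few counts. Against aortic sinus the exact permutation p was 0.0571 for CD79B and 0.0857 for CD79A, and both overlapped. For MS4A1 it was 0.0286 in the exact permutation test, but autograft replicate 2 and aortic replicate 4 had 1 count each and were set apart by library scaling alone. With no filter, edgeR's quasi-likelihood test with Benjamini-Hochberg adjustment over all genes gave an adjusted p = 0.0263 for CD79A, 0.0413 for MS4A1 and 0.0587 for CD79B against pulmonary sinus, and 0.178, 0.111 and 0.227 against aortic sinus. Without autograft replicate 3 the unfiltered edgeR test, added after the data were seen, gave an adjusted p = 0.0737 for CD79A, 0.115 for MS4A1 and 0.150 for CD79B against pulmonary sinus. The exact permutation p of the 3 genes was then 0.0667, the smallest that 2 against 4 libraries can give.

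CCR7, a homing receptor of naive B and T cells, was highest in the same library as MS4A1, with 2, 4 and 67 counts in autograft replicates 1, 2 and 3. SPIB, a transcription factor of B cells, had 3, 2 and 12 counts. Both were chosen from the lists after their values were seen. PAX5, the regulator that holds B cell identity, had 0 counts in all 11 libraries, and CXCR5, the receptor that guides B cells to follicles, had 2 counts, both in autograft replicate 3. CR2, the complement receptor of B cells and follicular dendritic cells, ran the other way, at 106, 59.3 and 2.56 CPM in autograft replicates 1, 2 and 3 and between 0.171 and 26.8 CPM in the native libraries.

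CD22 stood at 16.4, 6.70 and 2.56 CPM in autograft replicates 1, 2 and 3, at 7.71, 1.45, 2.53 and 6.82 CPM in aortic replicates 1 to 4, and at 2.99, 0.742, 0.656 and 1.31 CPM in pulmonary replicates 1 to 4. The autografts overlapped both native groups, and the aortic libraries split into a high and a low pair. CD22 rose against pulmonary sinus by a log2 fold change of 2.58 ± 0.76 (SE) with an edgeR adjusted p = 0.0497, at the edge of the threshold. The call ended in 8 of 11 fits with a library left out and held without aortic replicate 2, autograft replicate 3 or pulmonary replicate 1. Calls over all genes moved as well, from 1699 in the main fit against pulmonary sinus to between 452 and 2753 in such fits. Without autograft replicate 1 the change in CD22 was 1.70 (edgeR adjusted p = 0.175), and without aortic replicate 1 it was 2.58 (0.0582). Against aortic sinus CD22 stood at 0.88 ± 0.72 (edgeR adjusted p = 0.492). In aortic replicate 1, which had 152 counts of CD22, MS4A1 had 0 counts and CD79A had 2. FFAR1, whose RefSeq gene model overlaps that of CD22, had 0 counts in all 11 libraries.

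BANK1 stood at 7.65, 6.11 and 2.44 CPM in autograft replicates 1, 2 and 3, at 1.42, 1.85, 1.03 and 1.77 CPM in the aortic libraries and at 1.30, 0.971, 0.796 and 1.14 CPM in the pulmonary ones. All 3 autografts lay above all 8 native libraries, and 9.77% of tested genes were higher than aortic sinus without overlap. Its mean was 5.40 ± 2.68 CPM (SD, n = 3) in the autografts and 1.05 ± 0.217 CPM (SD, n = 4) in pulmonary sinus. BANK1 rose over pulmonary sinus by 2.36 ± 0.40 on the log2 scale (edgeR adjusted p = 0.0105). This call held in all 11 fits with a library left out, at 2.01 to 2.70 on the log2 scale. Against the aortic mean of 1.52 ± 0.374 CPM (SD, n = 4) BANK1 rose by 1.82 ± 0.39 (edgeR adjusted p = 0.0387), and that call ended in 8 of 11 such fits. It held without autograft replicate 3 or pulmonary replicates 1 or 2, and the highest edgeR adjusted p = 0.118 came without aortic replicate 3. Leaving out aortic replicate 1, whose label is at odds with the design, gave 1.79 for BANK1 (edgeR adjusted p = 0.0950). Calls over all genes against aortic sinus fell from 356 to 30 without aortic replicate 3 and to 61 without aortic replicate 1.

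Macrophage markers ran in the same order as CD22 and BANK1 over the autografts. The 11 of 12 listed markers with a row summed to 1335, 891 and 147 CPM in autograft replicates 1, 2 and 3, to between 128 and 438 CPM in aortic sinus and to between 60.6 and 314 CPM in pulmonary sinus. Of the 11, 9 were highest in autograft replicate 1, and 3 rose against pulmonary sinus, LYZ, CD14 and CD68. With 1 library left out these calls ended in 1, 4 and 9 of 11 fits, with a highest edgeR adjusted p = 0.0545 for LYZ (without autograft replicate 2) and 0.0862 for CD14 and 0.124 for CD68 (without autograft replicate 1). The part of macrophages in the levels of CD22 and BANK1 was not tested.

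JCHAIN stood at 7.37, 54.3 and 12.6 CPM in autograft replicates 1, 2 and 3, between 5.43 and 7.46 CPM in aortic sinus and between 4.17 and 7.26 CPM in pulmonary sinus. Replicates 2 and 3 were above every native library, by a wide margin in replicate 2. Replicate 1 lay within the aortic range and was above the highest pulmonary library by less than the counting error, its 95% Poisson interval being 6.16 to 8.74 CPM against 6.16 to 8.50. JCHAIN rose against pulmonary sinus by a log2 fold change of 1.97 ± 0.54 (edgeR adjusted p = 0.0403). Without autograft replicate 2 the change was 0.65 (edgeR adjusted p = 0.188). The JCHAIN call ended in 8 of 11 fits with a library left out, among them each aortic library (edgeR adjusted p = 0.0542 without aortic replicate 1), and held without autograft replicates 1 or 3 or pulmonary replicate 1. Against aortic sinus it stood at 1.96 ± 0.54 (edgeR adjusted p = 0.0778), and at 2.40 without autograft replicate 1 (0.0341).

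The 2 sequencing runs gave the same picture of replicate 2, at 55.8 and 52.7 CPM of JCHAIN from the unscaled run totals. A long non-coding RNA gene, LOC105612199, overlaps JCHAIN in the RefSeq models, and no source used here gives the strand setting of the counting. That gene was at its lowest of all 11 libraries in autograft replicate 2, at 2.10 CPM. JCHAIN had 116 counts in pulmonary replicate 4, where MS4A1, CD79A and CD79B had 0.

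MZB1 had 2, 25 and 8 counts in autograft replicates 1, 2 and 3, between 5 and 10 in the aortic libraries, and 2, 2, 13 and 3 in pulmonary replicates 1 to 4. Replicate 2 (1.46 CPM) was the highest library while replicate 1 (0.112 CPM) had as few counts as pulmonary replicates 1 and 2, so the groups overlapped in both comparisons. The exact permutation p was 0.371 against pulmonary and 0.543 against aortic sinus, and the autograft mean was 0.674 ± 0.698 CPM (SD, n = 3). DERL3, a component of endoplasmic reticulum quality control that is abundant in plasma cells, had 1, 19 and 3 counts in the autografts and 0 or 1 in each native library. It too was chosen after its values were seen. TNFRSF17, the plasma cell survival receptor, had 1 count in autograft replicate 2, 2 counts in pulmonary replicate 3 and 0 in the other 9 libraries.

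Antibody transcripts themselves could be read from genes that RefSeq types as C_region, the constant parts of antigen receptors. An unbroken run of 7 such genes lies next to TMEM121 in the RefSeq assembly, and in mammals TMEM121 flanks the immunoglobulin heavy chain locus. Of the 7, 4 had a row in the count tables. They were added after the values of the members were seen and get no test. Their summed counts were 86, 13868 and 1044 in autograft replicates 1, 2 and 3, between 8 and 33 in aortic sinus, and 13, 0, 4 and 0 in pulmonary replicates 1 to 4. In CPM without TMM scaling this was 4.95, 798 and 57.5 in the autografts against at most 1.66 in native wall. In replicate 2 these 4 genes made up 0.0798% of all counts.

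LOC101108817 gave most of it in replicate 2, with 12, 8878 and 276 counts in autograft replicates 1, 2 and 3, and LOC101108522 had 73, 4722 and 521. Neither table says which immunoglobulin class they encode. LOC101107475 was less apart between replicates 2 and 3, with 1, 267 and 185 counts in autograft replicates 1, 2 and 3 and 0 to 5 in native libraries. Also in the run, LOC101107738 had 62 counts in replicate 3, 1 in replicate 2 and 0 in the other 9 libraries. The 2 autografts with the most constant-region counts thus did not share 1 makeup. The order of the summed counts over the autografts was that of JCHAIN, with replicate 2 highest and replicate 1 lowest, but LOC101107738 was highest in replicate 3. Native libraries with 0 constant-region counts still had 73 and 116 counts of JCHAIN.

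**Figure D3:**
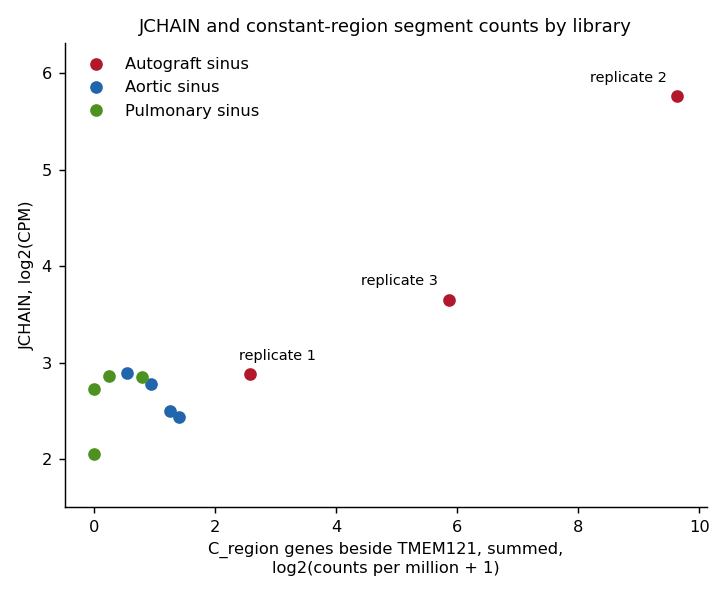
Each point is 1 of 11 libraries, with the summed constant-region segment genes as log2(unscaled CPM + 1) on the horizontal axis and JCHAIN as log2 CPM on the vertical axis. Autograft replicates 2 and 3 stand apart from the native libraries on both axes, and autograft replicate 1 on the horizontal one alone.

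In the model over all genes, 3 of the 7 members passed the filter, and BANK1, CD22 and JCHAIN were each called higher than in pulmonary sinus, where 11.3% of all tested genes were called and 6.05% were called higher. Against aortic sinus BANK1 alone was called, beside 2.38% of all tested genes, 0.948% of them higher. In limma-voom without a block, CD22 stood at 2.48 (adjusted p = 0.0939) and JCHAIN at 1.45 (0.139) against pulmonary sinus and BANK1 at 1.68 (0.0625) against aortic sinus, so that 1 call remained, that of BANK1 against pulmonary sinus. With the animal as a random block in limma-voom these adjusted p values were 0.0897, 0.138 and 0.0619. Between the 2 native sinuses 0 members were called by edgeR, as were 0.0% of all tested genes, with an unadjusted p under 0.05 for 2.04% of genes and for 1 member. That was CD22, at 1.70 ± 0.71 on the log2 scale in aortic over pulmonary sinus (edgeR unadjusted p = 0.0358). DESeq2 and limma-voom also called 0 members there. Both autograft comparisons share the 3 autograft libraries and are not independent of each other. The members that passed had to be present in at least 1 group, and their count is not a measure of the 4 that did not pass.

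**Figure D4:**
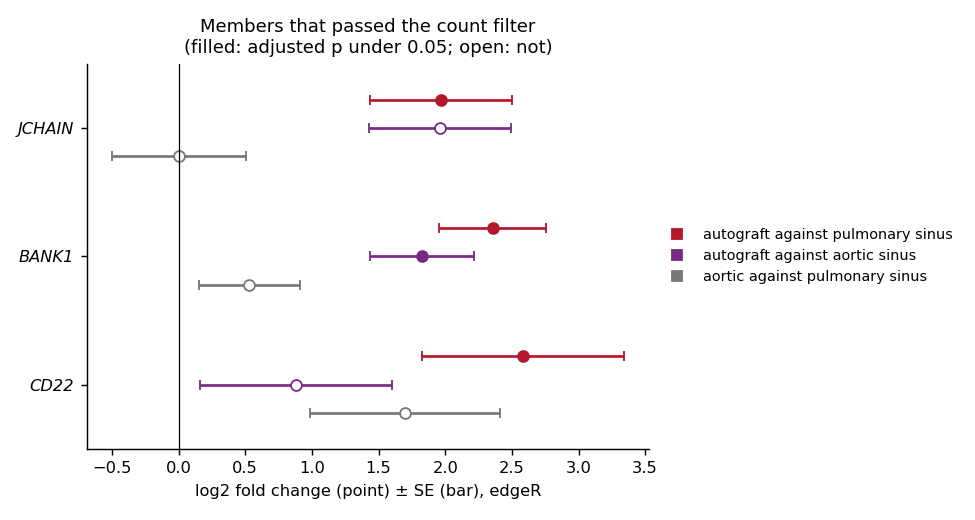
Points are log2 fold changes from edgeR with SE bars for the 3 members that passed the count filter, in the 3 comparisons; filled points have an adjusted p under 0.05. The 3 changes against pulmonary sinus and that of BANK1 against aortic sinus are filled, and JCHAIN lies at 0.0053 between the native sinuses.

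The spread between autografts was large for each of the 3. On the log2 CPM scale the SD of JCHAIN over the autografts was 1.48, and 3.26% of all tested genes had a larger one, while over the aortic libraries it was 0.22 and 53.7% of genes had a larger one. The SD of CD22 was 1.31 in the autografts, 1.12 in aortic and 0.92 in pulmonary sinus, so that its unevenness was not limited to the operated animals. For BANK1 it was 0.85, 0.36 and 0.28. In the autografts 4.55% of all tested genes had a larger SD than CD22 and 11.8% a larger one than BANK1. These shares are over tested genes of every level, not over genes of like level. The median SD over all tested genes in the autografts was 0.30.

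The wider B cell pathway was read from lists chosen with earlier results of these data known. Of 15 tested genes of B cell receptor signalling, 4 rose and 0 fell against pulmonary sinus, with a list median of 1.51 on the log2 scale against 0.0013 for all genes. They were the adaptor gene DAPP1 (3.23 ± 0.71), the kinase gene SYK (2.16 ± 0.53), the exchange factor gene VAV1 (1.84 ± 0.48) and the phosphatase gene PTPN6 (1.51 ± 0.41), of which the last 3 are also used by myeloid and other lymphoid cells. DAPP1 stood at 8.38, 2.56 and 1.70 CPM in autograft replicates 1, 2 and 3, the order of CD22. Without autograft replicate 1 the calls of DAPP1 (adjusted p = 0.0642), PTPN6 (0.107) and VAV1 (0.0967) ended in edgeR, and that of SYK ended without autograft replicate 2 (0.0857). These were the fits with the highest adjusted p. In all, the calls ended in 3 (DAPP1), 7 (PTPN6), 6 (VAV1) and 4 (SYK) of 11 fits with a library left out.

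Of 11 tested regulators of the B lineage, 7 rose and 1 fell, with a median of 1.40. The 11 hold IKZF3 and IRF4, which passed the count filter only through the autografts. IKZF1 and IKZF3, which encode the lymphoid factors Ikaros and Aiolos of B and T cells, rose by 2.78 ± 0.51 and 3.51 ± 0.70. IRF8, shared with macrophages, rose by 1.83 ± 0.39 and PRDM1, which encodes the plasma cell regulator Blimp-1 that T cells also use, by 2.62 ± 0.59. BCL11A, a factor of early B cells and of plasmacytoid dendritic cells, was the 1 that fell (-2.00 ± 0.57, edgeR adjusted p = 0.0457), as did 5.29% of all tested genes. Its call ended in 9 of 11 fits with a library left out, with a highest edgeR adjusted p = 0.133 without autograft replicate 2. The calls of IRF8 (adjusted p = 0.0581) and PRDM1 (0.0665) ended in edgeR without autograft replicate 2.

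Of 8 tested surface and survival receptors, 2 rose, the activation marker gene CD69 (5.02 ± 0.99) and the tetraspanin gene CD37 (1.74 ± 0.43), with a median of 1.68. The call of CD37 ended without pulmonary replicate 3 (edgeR adjusted p = 0.0834). Of 15 tested genes of immunoglobulin secretion and plasma cells, many of which other secretory cells use too, 5 rose and 10 did not pass, with a median of 0.24. TXNDC5, a disulfide isomerase gene, rose by 0.64 ± 0.11, with means of 331 ± 13.8 CPM (SD, n = 3) in the autografts and 213 ± 24.3 CPM (SD, n = 4) in pulmonary sinus. Its order over the autografts was not that of JCHAIN, replicate 3 being the lowest. SLAMF7, a receptor gene of plasma cells and cytotoxic lymphocytes, rose by 3.80 ± 0.78, the peroxiredoxin gene PRDX4 by 0.57 ± 0.13 and the prolyl isomerase gene FKBP11 by 1.36 ± 0.35. The calls of SLAMF7 (adjusted p = 0.0554) and FKBP11 (0.103) ended in edgeR without autograft replicate 2, and that of PRDX4 without pulmonary replicate 2 (0.0623).

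Of 10 tested genes that recruit B cells or keep them alive, 4 rose and 0 fell, with a median of 1.41. LTB, a lymphotoxin chain gene, rose by 2.91 ± 0.58, the chemokine gene CXCL12 by 1.57 ± 0.35, and TNFSF13B, which encodes the B cell survival factor BAFF, by 2.87 ± 0.74. CCL19, a chemokine of lymphoid tissue, rose by 3.79 ± 0.87 and stood at 3.26, 53.6 and 13.2 CPM in autograft replicates 1, 2 and 3, the order of JCHAIN, against 0.514 to 5.55 CPM in native wall. CXCL13, the chemokine that attracts B cells to follicles, had 18, 55 and 13 counts in the autografts and between 0 and 35 in native libraries. Without autograft replicate 2 the calls of CCL19 (adjusted p = 0.0996), CXCL12 (0.0661) and TNFSF13B (0.105) ended in edgeR.

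Of the 19 genes given above as called from these 5 lists, 5 stayed called whichever library was left out, IKZF1, IKZF3, CD69, LTB and TXNDC5. The other 14 calls ended in at least 1 of 11 such fits, and the fit named above for each is that with the highest adjusted p. Beside the 4 signalling genes, the call ended in 9 fits for BCL11A, 5 for CD37 and FKBP11, and 4 for PRDX4, CCL19 and TNFSF13B. It ended in 3 for IRF8, PRDM1 and CXCL12 and in 2 for SLAMF7. CD69, IKZF3 and SLAMF7 passed the count filter only through the autografts, so their rise is not independent of the filter. IRF4, tested among the regulators, also passed only through them. The counts and medians of the lists that hold these 4 genes are likewise not independent of the filter. The highest levels of CD69, IKZF3, SLAMF7 and IRF4 were 0.269, 0.806, 0.913 and 0.850 CPM in aortic sinus. In pulmonary sinus they were 0.113, 0.395, 0.285 and 0.282 CPM. Over all genes, calls against pulmonary sinus fell from 1699 to 452 without autograft replicate 2 and to 1181 without autograft replicate 1. They fell to 522 without pulmonary replicate 2 and to 505 without pulmonary replicate 3, so a lost call is not particular to these lists. Against aortic sinus 0 of the genes tested in the 5 lists passed in edgeR at the adjusted level, while 3, 6, 2, 5 and 5 had an unadjusted p under 0.05 in the order of the lists above, as did 23.0% of all tested genes. The nearest were IKZF3 (adjusted p = 0.0513), TXNDC5 (0.0520) and IKZF1 (0.0566).

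Markers of other cell types varied between the autografts as well. The 11 T cell markers with a row summed to 32.5, 37.8 and 38.4 CPM in autograft replicates 1, 2 and 3 and to between 5.49 and 17.3 CPM in native wall, but single markers were uneven, with a highest to lowest autograft ratio of 7.74 for CD28 and 4.54 for CD8B. Of 10 tested T cell markers 7 rose against pulmonary sinus, and CD3E stood at 7.88 ± 0.542 CPM (SD, n = 3) in the autografts. CD6, among the 7, and CD3G, also tested, passed the count filter only through the autografts, so this count is not independent of the filter. Their highest levels were 0.750 and 0.913 CPM in aortic sinus and 0.452 and 0.508 CPM in pulmonary sinus. Endothelial markers summed to 179, 1599 and 942 CPM, and all 8 were highest in replicate 2, the library with most JCHAIN. The 4 blood cell markers with a row summed to 2.42, 1.63 and 51.2 CPM and to at most 1.35 CPM in native wall, and all 4 were highest in replicate 3, the library with most MS4A1. Of these, ALAS2, an erythroid haem synthesis gene, had 672 counts in replicate 3 and HBM, a haemoglobin gene, had 63, with 0 counts of HBM in the other 10 libraries. The part of blood, endothelium or T cells in the B cell and plasma cell levels was not tested.

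Plasmacytoid dendritic cells also use JCHAIN, MZB1 and SPIB. Their 8 markers with a row summed to 145, 110 and 106 CPM in autograft replicates 1, 2 and 3 and to between 83.2 and 128 CPM in native wall. Most of that sum was TCF4, a transcription factor gene of many cell types, at 129, 84.3 and 92.5 CPM in the autografts. Of 7 tested, IL3RA, which encodes an interleukin-3 receptor chain, rose against pulmonary sinus (4.73 ± 1.20, edgeR adjusted p = 0.0323). Its call ended in 4 of 11 fits with a library left out, with a highest edgeR adjusted p = 0.103 without autograft replicate 2. IL3RA stood at 0.562, 13.0 and 6.76 CPM in autograft replicates 1, 2 and 3 and at 0 to 1.70 CPM in native wall. Its order over the autografts was that of JCHAIN and also that of the summed endothelial markers. The 7 tested genes of this list had a median of 1.41 on the log2 scale against pulmonary sinus. PTCRA, a marker of that cell type, stood at 0.780 ± 0.237 CPM (SD, n = 3) in the autografts and at 0.657 CPM on average in pulmonary sinus. Means in autograft and pulmonary sinus were 3.83 and 3.89 CPM for PLD4, 1.70 and 0.619 for IRF7, and 2.48 and 0.781 for TLR7. They were 0.305 and 0.0660 CPM for TLR9 and 2.41 and 0.901 for RUNX2. The part of this cell type in the levels of JCHAIN was not tested.

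**Figure D5:**
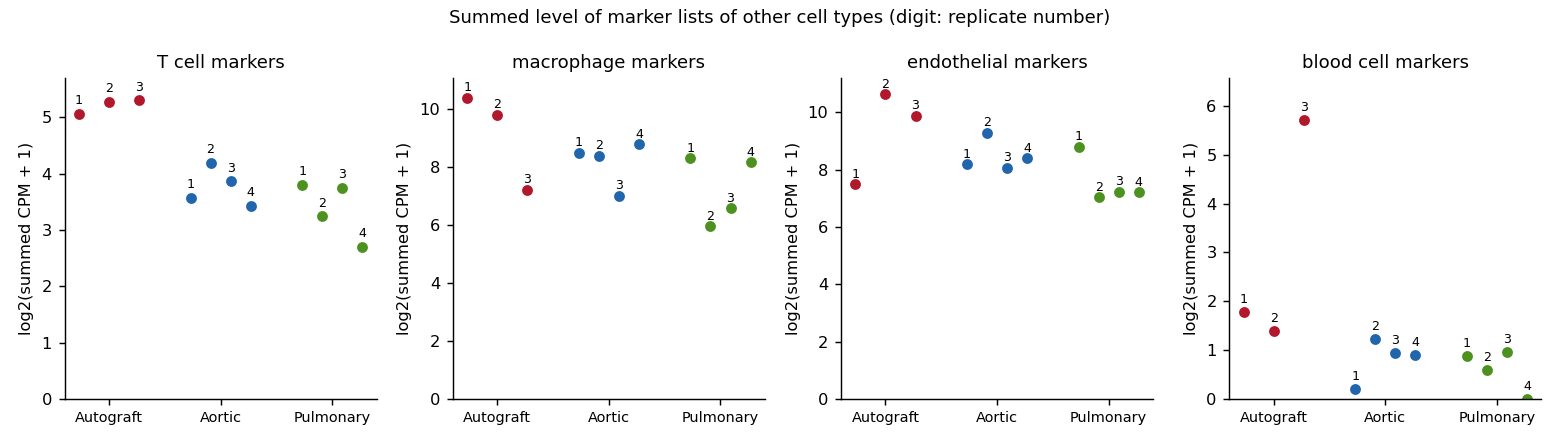
Each panel sums the CPM of 1 marker list per library on a log2(CPM + 1) axis, with replicate numbers beside the points. The summed T cell markers lie close together in the 3 autografts, macrophage markers are highest in autograft replicate 1, endothelial markers in replicate 2 and blood cell markers in replicate 3.

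The 8 genes whose log2 CPM was most like the mean of BANK1, CD22 and JCHAIN over the 11 libraries were P4HA3, CFD, ARPC5, ITGB7, FYB, PTPRJ, WISP1 and C7H15orf48, with Pearson's r between 0.954 and 0.975. Between the 3 members themselves r was 0.75 for BANK1 and CD22, 0.62 for BANK1 and JCHAIN and 0.33 for CD22 and JCHAIN. The 8 genes were the highest found in a search over all tested genes and the pairs of members were not, so higher values for the 8 were to be awaited. Taken singly, the 4 genes most like JCHAIN were WDR77, LOC101113211, CMIP and LOC101108817, with r from 0.931 to 0.943. The last is the constant-region gene described above, and LOC101113211, a protein-coding gene, is the next RefSeq gene after that run. These values describe 11 libraries that share depth, animals and tissue makeup.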

How the data were processed

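The members and gene lists were chosen with earlier results of these data known. TRIzol and a TruSeq kit were used, per the labels' protocols. Tools named in the submitters' processing notes, without a role, are STAR 2.5.2b, Bowtie2 2.3.3.1, featureCounts 1.5.3 and cutadapt. Genome build, annotation and strand setting have no source here. The deposited raw tables, 1 per run, hold whole-number counts. The deposited FPKM tables hold 6 of the 7 members, have no value of 0 even where the count is 0, and served as an alternative. A row without a gene name (at most 0.000522% of a library) was left out.

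Both runs were summed per library. Run pairs gave a chi-square per gene of 1.39 to 1.52, and pairs of libraries in a group 31.9 to 112. Genes were filtered with filterByExpr (14979 kept), scaled by TMM and fitted with edgeR 4.0.16 (R 4.3.3) over all 11 libraries without a block. SEs are the log2 fold change over the root of the F statistic. Alternatives used limma 3.58.1 and DESeq2 1.42.0. A call needs a Benjamini-Hochberg adjusted p under 0.05. The fit was tested on simulated data. Native libraries are paired by animal in the column names, and their deviations from group means correlated at -0.18, -0.13, 0.43 and 0.45 for D3 to D6. No source says whether autograft libraries differ in batch. RefSeq (ARS-UI_Ramb_v3.0) matched 18717 symbols, all members among them, and served for names and neighbours. Named genes were all members, per list up to 4 called genes with the smallest p (2 where none was called) and the 8 genes most like the members. All others, such as CCR7, CR2, PAX5, CXCL13, DERL3, BCL11A, PTCRA and ALAS2, were chosen after their values were seen.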

Additional observations from a re-analysis of the deposited data

Results flagged for a closer look

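Among the 14 native groups of 4 libraries examined for a member, MZB1 was 0.609 CPM in pulmonary replicate 3 (13 counts), with the next library at 0.172 CPM; chance picks out about 1 in 20 groups. CD79B was 0.150 CPM in aortic replicate 2 (3 counts) and MS4A1 was 0.0537 CPM in aortic replicate 4 (1 count), each with the other 3 libraries at 0. With 3 libraries at 0 any count in the fourth is picked out, so that chance rate does not apply, and such counts are within what 0 counts allow.

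The constant-region segment genes beside TMEM121, which no comparison tested, stood above the highest native library (1.66 CPM without TMM scaling) in every autograft, at 4.95 in replicate 1, 798 in replicate 2 and 57.5 in replicate 3.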

How the results depend on the processing

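The count of members called against pulmonary sinus was 3 and became 5 of 7 with no filter, 1 with limma-voom, with the 2 groups alone, with run 1 alone and with log2(FPKM + 1), and 0 of 1 with a mean FPKM of at least 1. Leaving out 1 library gave 1 to 3. All genes called were 1699 of 14979 in the main fit, 1548 of 20377 with no filter and 1632 of 14979 with limma-voom. They were 479 of 14594 with the 2 groups alone, 1275 of 13208 with run 1 alone and 1711 of 14873 with log2(FPKM + 1). They were 1605 of 12034 with a mean FPKM of at least 1, and 452 to 2753 with 1 library left out. Against aortic sinus the count of members called was 1 and became 2 with DESeq2. It became 0 with limma-voom, with the 2 groups alone, with run 2 alone, with each FPKM setting and without animal D3. With 1 library left out it was 0 to 1. All genes called there were 356 of 14979 in the main fit, 1469 with DESeq2 and 384 with limma-voom. They were 257 of 14700 with the 2 groups alone and 323 of 14414 with run 2 alone. They were 301 to 388 with the FPKM settings, 110 of 14810 without D3 and 25 to 576 with 1 library left out. Between native sinuses 0 members were called in every setting run, as were 0 of all tested genes. With animals as a random replicate block (limma-voom) the count of members was 1 against pulmonary and 0 against aortic sinus, as without the block in limma-voom. All genes called were then 1611 and 361. With no filter and without autograft replicate 3, a setting added after the data were seen, the count of members was 3 and 1. All genes called were then 1408 and 215 of 20255. The cause of these changes was not tested. BANK1 stayed called against pulmonary sinus in every alternative that tested it, between 0.60 and 3.62 on the log2 scale, and no called change reversed. Counts of 0 to 38 for CD79A, CD79B and MS4A1 limit what can be said of these genes.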
